A study of Mus musculus with 6 samples.

Results

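To ask whether loss of GPR174 alters transcripts for the machinery of B cell antigen receptor signalling, 37 genes that encode receptor chains, kinases, adaptors, lipid enzymes and calcium regulators were examined in cultured follicular B cells. The genes were picked by name, as components of the pathway, with earlier results of these data known. All 37 were among the 12431 genes of the count table and all 37 passed the filter on low counts, which left 10514 genes. The cells were CD21/35- CD23+ follicular B cells, sorted from spleens of adult male mice and cultured for 1 h in complete RPMI medium with no stimulus added. The 6 libraries comprised 3 of WT (Gpr174+/Y) and 3 of GPR174-deficient cells (Gpr174-/Y, KO). In the KO line a tdTomato reporter replaces the coding exon of Gpr174 in all cells of the animal. GPR174 is a receptor for lysophosphatidylserine that signals through the G protein subunit Gαs and raises cAMP. The mutant line was made in 129 embryonic stem cells and then backcrossed to C57BL/6J, and the animals carried no other allele that the labels name.

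The B cell receptor is a membrane immunoglobulin bound to a pair of signalling chains, Igα and Igβ. When antigen is bound, Src-family kinases phosphorylate tyrosine motifs in these chains, the kinase Syk docks there, and an adaptor platform brings Btk, phospholipase Cγ2 and phosphoinositide 3-kinase together. The pathway then branches to calcium and NFAT, to protein kinase C and NF-κB, to Ras and ERK, and to Akt, and phosphatases and ubiquitin ligases restrain each branch. In resting follicular B cells the same machinery delivers a weak tonic signal that supports survival.

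The libraries held 8452460 to 10944833 counts, and the 37 genes took 1.52% to 1.58% of the counts in each. Each library came from 1 of 3 mice of its genotype, as the series describes it, and p-values measure the spread between these libraries. Levels are given as CPM, a gene's count scaled to the size of its library. The libraries were primed at the 3′ ends of transcripts, and levels are therefore compared between genotypes for one gene and not between genes. Gpr174 itself was at 136, 125 and 121 CPM in WT and 99.8, 100.2 and 99.8 CPM in KO, so transcripts of the disrupted gene were still counted (edgeR adjusted p 0.0359). Since 3′ ends were read and the coding exon is the part that was replaced, these counts give no check of the labels. WT replicate 2 stood apart from the other 5 libraries on the first principal component (a score of 32.5 against -8.18 to -4.33). Of 10 markers of follicular B cells, 9 were in the table, and they summed to 4799 to 4978 CPM in WT and 5375 to 5433 CPM in KO, with Cd79b the 1 of them that was called. The 7 markers of marginal zone B cells summed to 1290.0 to 1370.2 CPM in WT and 1259.5 to 1455 CPM in KO, and the 6 of plasma cells to 449 to 529 CPM in WT and 559.8 to 623 CPM in KO, of which Irf4 was called lower in WT. Without Irf4 the other 5 plasma cell markers summed to 118 to 127 CPM in WT and 103 to 119 CPM in KO. Markers of T cells summed to 16.7 to 29.7 CPM in WT and 10.3 to 21.3 CPM in KO over 11 genes. Estimates were above 0 in 6 of the 7 T cell markers tested (median 0.36 on the log2 scale), and edgeR called 0 of them. Myeloid markers summed to 269 to 330.4 CPM in WT and 275 to 312 CPM in KO over 11 genes. Without Cst3, the most abundant of them, the sums were 83.8 to 111 CPM in WT and 78.5 to 83.8 CPM in KO. Of the 10 myeloid markers tested, 9 had estimates above 0 (median 0.42 on the log2 scale), and edgeR called 0 of them, with 1, Fcer1g, at an unadjusted p under 0.05 (p 0.0263). Natural killer cell markers summed to 7.83 to 14.1 CPM in WT and 6.53 to 7.30 CPM in KO over 5 genes. The 2 tested had 1 estimate above 0 and 1 below, and edgeR called 0 of them. Gzma was the 1 above, with a log2 fold change of 1.09 (edgeR unadjusted p 0.0137, adjusted p 0.235). Hemoglobin Beta-s, an erythroid transcript, ranged from 2649.5 to 4649.7 CPM in WT and from 2976 to 7449 CPM in KO. The part of these cells in the results was not tested. In bulk RNA, fewer cells of a type and less RNA per cell cannot be told apart.

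Of the 37 genes, 4 differed between the genotypes beyond the spread of the libraries, and the other 33 were not called. Cd79b, Blk and Grap were lower in WT than in KO, and Inpp5d was higher. A gene was called at an adjusted p under 0.05 in edgeR's quasi-likelihood test, adjusted over all genes tested. Of the 37 genes, 4 were called (10.8%), where 1.82% of all genes tested were. As the list was chosen with earlier results of these data known, its shares were not tested against those of all genes. The count was 2 of the 37 without WT replicate 1, WT replicate 2, KO replicate 1 or KO replicate 3. In these fits 141, 183, 133 and 91 of all genes were called, in that order, against 191 with all 6 libraries. Without KO replicate 2, 3 of the 37 and 113 of all genes were called. Lower levels in WT were called for 3 of 37 (8.11%, against 0.514% of all genes) and higher levels for 1 of 37 (2.70%, against 1.30%). At an unadjusted p under 0.05 there were 8 of 37 (21.6%, against 11.9%), of which 4 were higher and 4 lower in WT. The 3 libraries of one genotype lay wholly above or below those of the other in 7 of the 37 (18.9%), a share close to that of all genes tested (16.7%). Among the 5385 genes whose counts averaged 250 or more, which include all of the 37 but Vav2, 3.03% were called. In that set 16.0% had an unadjusted p under 0.05.

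**Figure D1:**
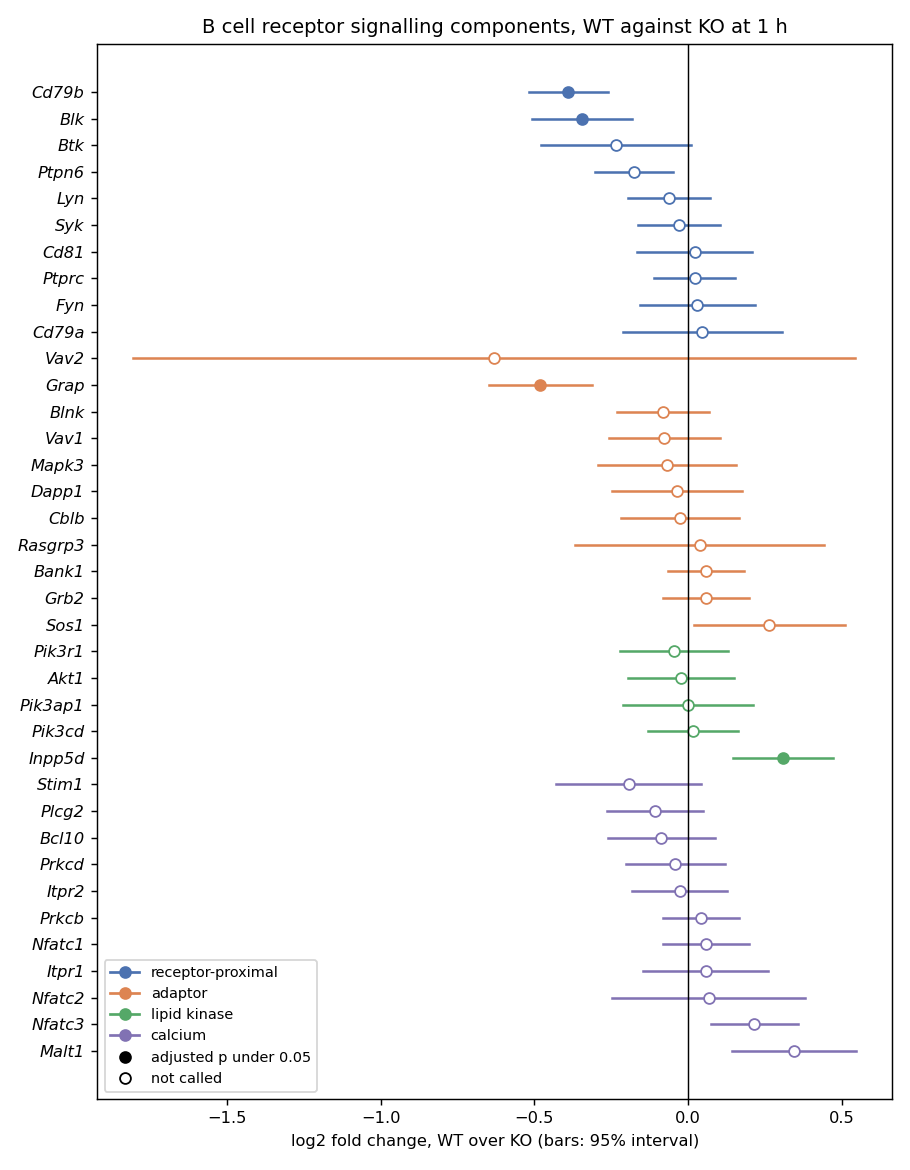
Log2 fold change of WT over KO (horizontal axis) for each of the 37 genes, ordered within 4 arms of the pathway. Points are edgeR estimates from 3 WT and 3 KO libraries, bars are 95% intervals, and filled points were called; Cd79b, Blk and Grap lie to the left of 0, Inpp5d to the right, and Vav2 has the widest bar.

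The receptor itself was examined first. Cd79b encodes Igβ, one of the signalling chains. It was at 762, 720.3 and 727 CPM in WT replicates 1 to 3 and at 1015, 927 and 952 CPM in KO replicates 1 to 3. Every WT library lay below every KO library, and WT cells held 76.4% of the KO level (736 ± 22.2 against 964 ± 45.5 CPM, mean ± SD). The log2 fold change of WT over KO was -0.39 ± 0.06 (SE, n = 3 per genotype; adjusted p 0.000358 in edgeR). This call was kept in all 6 fits that left out one library, where the edgeR adjusted p was at most 0.0104. The gene lies on chromosome 11 at 106311341 to 106314762 (mm10, minus strand). No other annotated gene was found to overlap it, with entries of the provisional GENCODE type TEC left out of the search.

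Cd79a, which encodes Igα, the partner of Igβ in the same receptor complex, did not follow it in these counts. The Cd79a row held 400 to 634 counts per library, against 6040 to 11150 for Cd79b. How much of the Cd79a transcript the 3′ counts captured was not tested. Cd79a was at 58.0, 47.7 and 46.1 CPM in WT and 52.3, 44.5 and 50.3 CPM in KO, so the genotypes overlapped. Its log2 fold change was 0.05 ± 0.13 (SE), with a 95% interval from -0.21 to 0.31 and an edgeR adjusted p of 0.929. The ratio of Cd79b to Cd79a counts within a library was 13.1, 15.1 and 15.8 in WT and 19.4, 20.8 and 18.9 in KO. The ranges of this ratio did not overlap between genotypes, although the ratio was singled out after both values were seen and was not tested. Cd81, a tetraspanin, had a log2 fold change of 0.02 (95% interval -0.17 to 0.21).

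Among the Src-family kinases, which phosphorylate the receptor chains, Blk was the member that was called. It was at 198, 184 and 214 CPM in WT and 248, 240.3 and 268 CPM in KO. All WT libraries lay below all KO libraries, with WT at 78.8% of KO (199 ± 15.4 against 252 ± 14.6 CPM, mean ± SD). The log2 fold change was -0.34 ± 0.08 (SE; adjusted p 0.0158 in edgeR). This call was less firm than that of Cd79b. It was lost without WT replicate 1 (edgeR adjusted p 0.0572), WT replicate 2 (0.0686), KO replicate 1 (0.0598) or KO replicate 3 (0.187), and kept without the other two.

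Lyn, the Src-family kinase that also starts inhibitory signals in B cells, was at 471, 458 and 485 CPM in WT and 505, 487 and 482 CPM in KO. Fyn, a relative that is prominent in T cells as well, was at 108, 111 and 106 CPM in WT and 101, 108 and 109 CPM in KO. Both overlapped between genotypes, with log2 fold changes of -0.06 (95% interval -0.19 to 0.07) and 0.03 (95% interval -0.16 to 0.22). Counts of Blk over Lyn gave a ratio of 0.421, 0.401 and 0.442 in WT and 0.491, 0.493 and 0.557 in KO, again without overlap and without a test.

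The kinases that act next were not called. Syk, which binds the phosphorylated receptor chains, was at 648, 624 and 621 CPM in WT and 674, 602 and 654 CPM in KO. Its log2 fold change of -0.03 had a 95% interval from -0.16 to 0.11. Btk, the Tec-family kinase that activates phospholipase Cγ2, was at 91.9, 76.4 and 104 CPM in WT and 90.7, 123 and 107 CPM in KO. Btk was spread more widely than Syk, and its log2 fold change of -0.23 ± 0.12 (SE) was not called (edgeR adjusted p 0.442, 95% interval -0.48 to 0.01).

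Of the receptor-proximal phosphatases, Ptpn6 encodes SHP-1, which is recruited by inhibitory receptors and removes phosphates from the signalling complex. It was at 1126, 1120.5 and 1245 CPM in WT and 1318, 1299 and 1329 CPM in KO. All WT libraries were below all KO libraries, but the difference was small, with a log2 fold change of -0.18 ± 0.06 (SE), an unadjusted p of 0.00826 and an edgeR adjusted p of 0.192, and it was not called. Ptprc encodes CD45, which releases Src-family kinases from their inhibited state. Its log2 fold change was 0.02, with a 95% interval from -0.11 to 0.15. In all, 2 of the 10 receptor-proximal genes were lower in WT, 0 were higher and 8 were not called by edgeR, with 3 at an unadjusted p under 0.05, all lower. For this and the other arms, the shares over all genes tested were 1.82% called and 11.9% at an unadjusted p under 0.05.

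**Figure D2:**
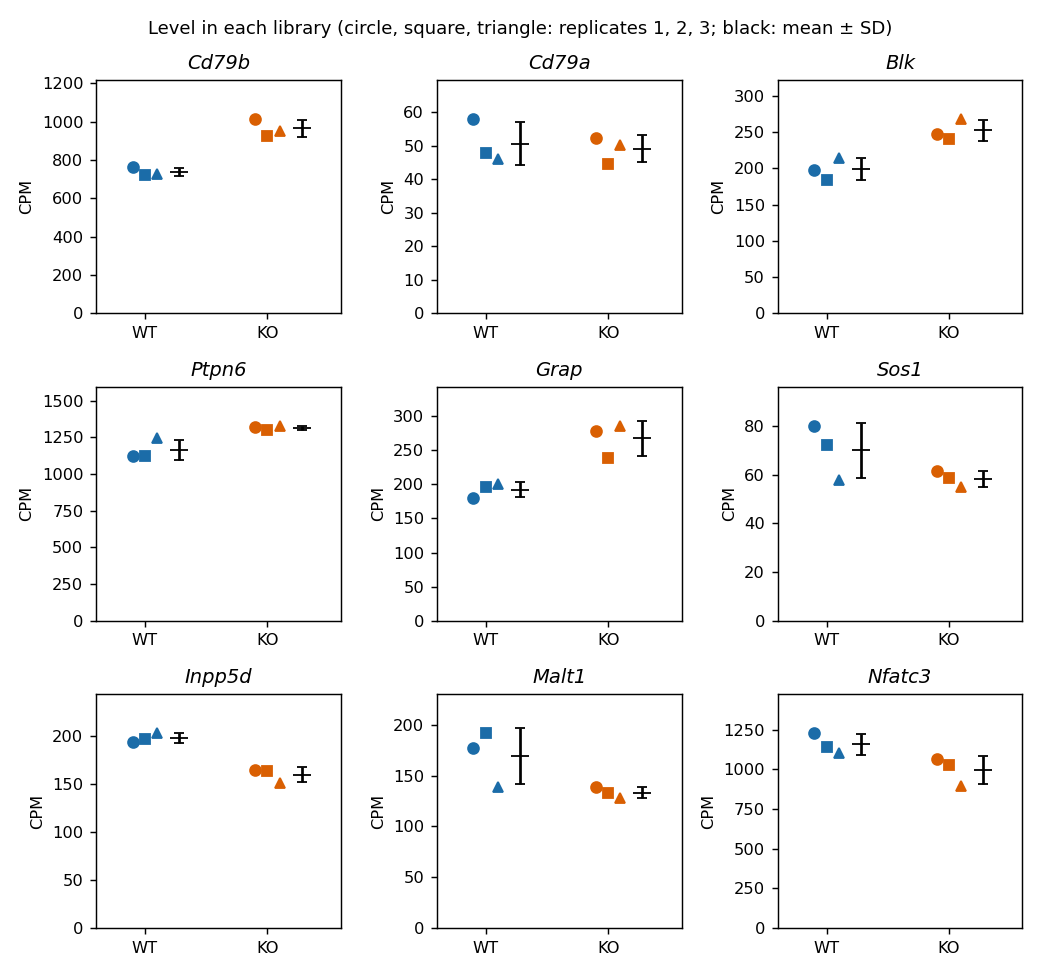
Level in CPM (vertical axes, from 0) of Cd79a and of the 8 genes with an unadjusted p under 0.05, in each WT library (blue) and KO library (orange). Black marks give the mean and SD of 3 libraries; the genotypes are apart for Cd79b, Blk, Ptpn6, Grap, Inpp5d, Malt1 and Nfatc3, and overlap for Cd79a and Sos1.

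Among adaptors and exchange factors, Grap had the largest called difference of the 37 genes. Grap encodes a small adaptor of the GRB2 family, made of an SH2 domain between SH3 domains, that links phosphorylated proteins to the Ras exchange factor SOS. It was at 180.0, 195 and 201 CPM in WT and 279, 239 and 286 CPM in KO. All WT libraries were below all KO libraries, and WT cells held 71.8% of the KO level (192 ± 10.9 against 268 ± 25.5 CPM, mean ± SD). The log2 fold change was -0.48 ± 0.08 (SE; adjusted p 0.000637 in edgeR). This call was kept in all 6 fits that left out one library, with an edgeR adjusted p of at most 0.0210. Grap lies on chromosome 11 at 61653265 to 61672784 (mm10, plus strand). Its 3′ end is overlapped on the opposite strand by Slc5a10, which held 0 to 11 counts per library against 1639 to 3063 for Grap.

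Grb2, the widely expressed relative of Grap, was at 477, 514 and 548 CPM in WT and 496, 479.9 and 502 CPM in KO. The genotypes overlapped, and the log2 fold change was 0.06 with a 95% interval from -0.08 to 0.20. The ratio of Grap to Grb2 counts was 0.377, 0.380 and 0.367 in WT and 0.562, 0.497 and 0.570 in KO. As with the other ratios, this one was singled out after its values were seen.

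Sos1, the Ras exchange factor that both of these adaptors bind, was at 80.0, 72.1 and 57.8 CPM in WT and 61.3, 58.8 and 54.9 CPM in KO. WT replicate 3 fell within the KO range. The log2 fold change of 0.26 ± 0.12 (SE) had an unadjusted p of 0.0361 and an edgeR adjusted p of 0.371, and was not called. The 3′ end of Sos1 overlaps a gene on the opposite strand, Arhgef33, and the use of strand in counting is not given in the sources used here. Rasgrp3, a Ras exchange factor that is activated by diacylglycerol, ranged from 306 to 441 CPM in WT and from 314 to 431 CPM in KO. This was a wide spread within each genotype, with a log2 fold change of 0.04 ± 0.17 (SE).

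Blnk encodes the B cell linker that assembles Btk and phospholipase Cγ2 on Syk substrates. It was at 289.8, 289.7 and 329 CPM in WT and 313, 329.9 and 317 CPM in KO, which gave a log2 fold change of -0.08 with a 95% interval from -0.23 to 0.07. Bank1, a scaffold for Lyn and calcium signalling, had a log2 fold change of 0.06, and Dapp1, an adaptor that binds the lipid products of phosphoinositide 3-kinase, of -0.04. Cblb, a ubiquitin ligase that limits receptor signalling, had -0.03, Mapk3 (the kinase ERK1) -0.07 and the Rac exchange factor Vav1 -0.08. None of these 6 log2 fold changes was called, and their edgeR adjusted p values were 0.743 or more. Vav2 was counted at 6 to 39 reads per library, and its log2 fold change of -0.63 ± 0.57 (SE) had a 95% interval from -1.80 to 0.54. The WT counts were 26, 6 and 25 and the KO counts 35, 39 and 19, so the libraries of one genotype also differed widely. Of the 11 genes of this arm, 1 was lower in WT, 0 were higher and 10 were not called by edgeR, and 2 had an unadjusted p under 0.05.

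In the phosphoinositide arm, the called gene was a phosphatase and not a kinase. Inpp5d encodes SHIP-1, which removes the 5-phosphate from the lipid that phosphoinositide 3-kinase makes and so restrains Btk and Akt. It was at 193, 197 and 203 CPM in WT and 164, 164 and 151 CPM in KO. All WT libraries were above all KO libraries, with WT at 124% of KO (198 ± 4.76 against 159.6 ± 7.46 CPM, mean ± SD). The log2 fold change was 0.31 ± 0.08 (SE; adjusted p 0.0372 in edgeR). The call was near the threshold: without each library in turn the edgeR adjusted p lay between 0.0525 (without WT replicate 2) and 0.256 (without KO replicate 3), so it was lost in all 6 of those fits, while the log2 fold change stayed between 0.27 and 0.33.

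The stretch just before the annotated start of Inpp5d is shown because Inpp5d was the one called gene of the 37 with an entry in the RefSeq promoter set used here, and because GPR174 acts through cAMP. It is the 250 bases before the start, plus strand, at chr1:87620062-87620311 (GRCm38.p6, the assembly behind mm10). Capitals mark the short form of the cAMP response element, TGACG or its reverse complement CGTCA, which was found at 1 place, 199 bases before the start.
Inpp5d: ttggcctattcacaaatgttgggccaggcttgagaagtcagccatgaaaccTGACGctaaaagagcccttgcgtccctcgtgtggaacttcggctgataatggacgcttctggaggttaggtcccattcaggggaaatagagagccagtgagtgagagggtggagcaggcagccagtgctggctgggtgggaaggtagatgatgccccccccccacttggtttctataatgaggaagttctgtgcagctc
Such windows were matched by symbol for 29 of the 37 genes. The genes without a match were Cd79b, Lyn, Blk, Grap, Mapk3, Itpr1, Nfatc1 and Malt1. Either strand of this short form was found in 4 of the 29 (13.8%; Inpp5d, Nfatc3, Pik3r1 and Stim1), against 32.2% of 7633 tested genes with a window. The full element TGACGTCA, which contains the short form, was found in 0 of the 29 and in 3.30% of tested genes. The octamer ATTTGCAT, a site for Oct factors of B cells, was found in Blnk and Prkcb, 2 of the 29 (6.90%) against 1.55% of tested genes. A match of letters is a description and not evidence of binding.

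The kinase side of this arm was close in the genotypes. Pik3cd encodes p110δ, the main catalytic subunit of phosphoinositide 3-kinase in B cells, and had a log2 fold change of 0.02 (95% interval -0.13 to 0.16). Pik3r1, its regulatory subunit, had -0.05 (95% interval -0.22 to 0.13). Pik3ap1, the adaptor BCAP that brings the kinase to the receptor complex, had 0.00032 (95% interval -0.21 to 0.21), and Akt1, a kinase activated by the lipid product, had -0.02 (95% interval -0.20 to 0.15). The WT mean was between 96.9% and 101% of the KO mean in each of these 4 genes. Of the 5 genes of the arm, 1 was higher in WT, 0 were lower and 4 were not called by edgeR, and 1 had an unadjusted p under 0.05.

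The calcium arm held 11 genes, of which 0 were called by edgeR, DESeq2 or limma-voom. As drawn here, this arm also takes in Prkcb, Prkcd, Bcl10 and Malt1, of the protein kinase C and NF-κB branch. Malt1 and Nfatc3 had an unadjusted p under 0.05, both higher in WT. With the replicate number as a block, edgeR called both (adjusted p 0.0347 for Malt1 and 0.0366 for Nfatc3). Plcg2, the phospholipase that makes inositol trisphosphate and diacylglycerol, was at 208, 225 and 237 CPM in WT and 236, 236 and 250.4 CPM in KO. Its log2 fold change was -0.11, with a 95% interval from -0.26 to 0.05. The inositol trisphosphate receptors Itpr1 and Itpr2, which release calcium from the endoplasmic reticulum, had log2 fold changes of 0.06 and -0.03. Stim1, the calcium sensor of that store, had a log2 fold change of -0.19 ± 0.12 (SE; adjusted p 0.547 in edgeR).

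NFAT factors enter the nucleus when calcium activates calcineurin. Nfatc3 was at 1227, 1141 and 1100.3 CPM in WT and 1065, 1025 and 896 CPM in KO. All WT libraries were above all KO libraries, and Nfatc3 had a log2 fold change of 0.22 ± 0.07 (SE), an unadjusted p of 0.00393 and an edgeR adjusted p of 0.125, which was not called. Its 3′ end overlaps Esrp2 on the opposite strand. Nfatc1 was at 526, 541 and 509.9 CPM in WT and 464, 528 and 524 CPM in KO, and Nfatc2 was at 28.1, 32.4 and 32.9 CPM in WT and 26.2, 29.9 and 33.0 CPM in KO. Both overlapped between genotypes, with log2 fold changes of 0.06 (95% interval -0.08 to 0.20) and 0.07 (95% interval -0.25 to 0.38).

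Protein kinase C β, BCL10 and MALT1 carry the diacylglycerol signal to NF-κB. Malt1, the paracaspase of this complex, was at 177, 192 and 139 CPM in WT and 138, 133 and 128 CPM in KO. The lowest WT library was just above the highest KO library. Malt1 had a log2 fold change of 0.35 ± 0.10 (SE), an unadjusted p of 0.00172 and, at 0.0736 in edgeR, an adjusted p above the threshold. Without WT replicate 3 the edgeR adjusted p of Malt1 was 0.00839, and without the other libraries in turn it was between 0.154 and 0.342. Its partner Bcl10 had a log2 fold change of -0.09, Prkcb of 0.04 and Prkcd, an isoform that promotes tolerance, of -0.04. The 95% intervals of these 3 genes lay between -0.26 and 0.17.

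**Figure D3:**
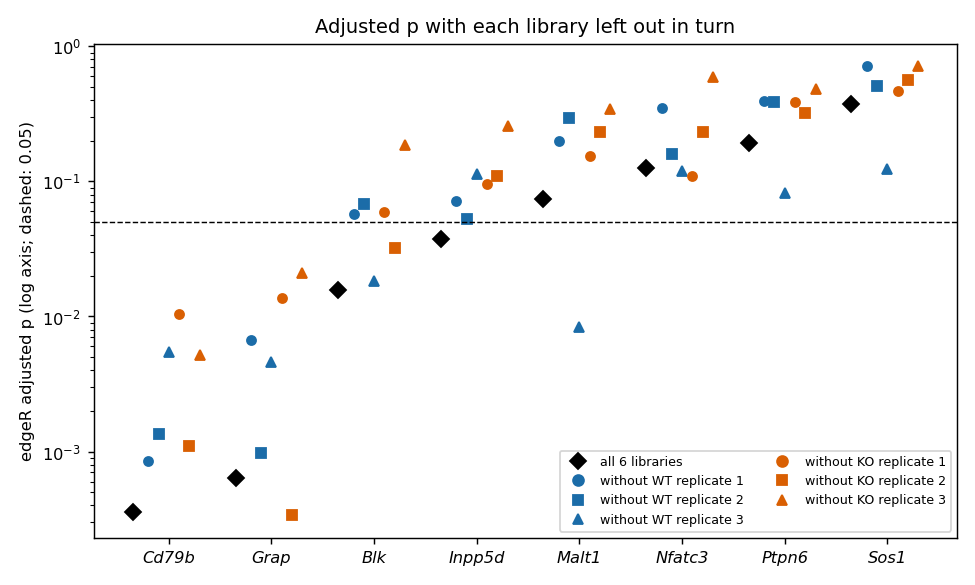
Adjusted p of edgeR's test (vertical log axis; dashed line at 0.05) for the 8 genes with an unadjusted p under 0.05, with all 6 libraries (black) and with each library left out in turn (blue, WT; orange, KO). Cd79b and Grap stay under the line throughout, Blk crosses it in 4 of 6 fits, Inpp5d in all 6, and Malt1 falls under it once.

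For the 33 genes that were not called, the data set bounds on the size of a difference. The 95% interval of the log2 fold change lay within -0.5 to 0.5 in 30 of them, the exceptions being Vav2, Malt1 and Sos1. It held 0 in 29 of the 33. The called estimates, from -0.48 for Grap to 0.31 for Inpp5d, were themselves within -0.5 to 0.5. An interval within these bounds therefore need not exclude a difference of the size that was called. Over all 37 genes the interval was within these bounds in 31 (83.8%), against 47.2% of all genes tested, and against 83.8% of the 5385 genes whose counts averaged 250 or more. For the 36 of the 37 genes at that depth, the share was 86.1%. The median log2 fold change was -0.03 over the 37 genes and -0.0026 over all genes tested, and 17 of the 37 estimates were above 0 and 20 below it. By arm the median log2 fold change was -0.04 for the receptor-proximal genes, -0.04 for adaptors, 0.00032 for the phosphoinositide arm and 0.04 for the calcium arm.

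**Figure D4:**
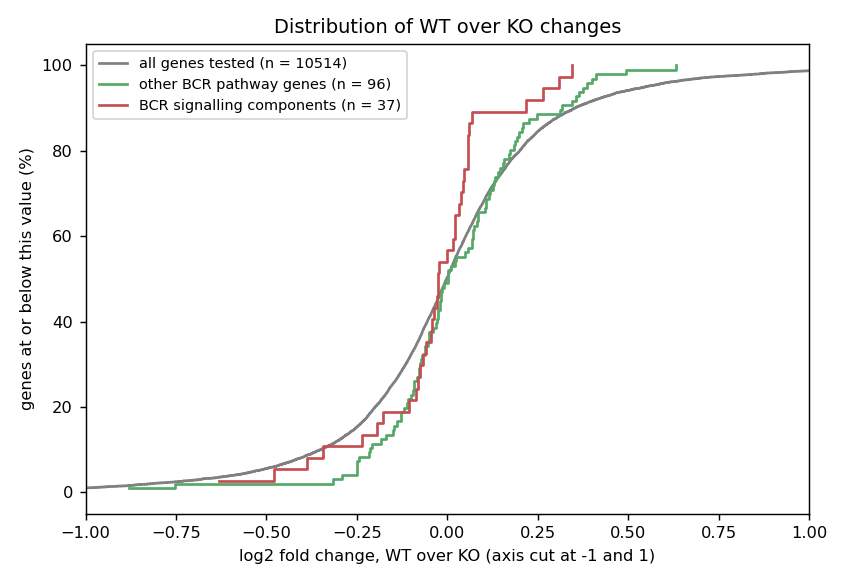
Cumulative share of genes (vertical axis, %) by log2 fold change of WT over KO (horizontal axis, shown from -1 to 1) for the 37 B cell receptor signalling components (red), 96 other genes of the pathway (green) and all 10514 genes tested (grey). All 3 curves cross 50% near 0, and the red curve rises most steeply, with estimates from -0.63 to 0.35. The grey curve is not matched to the depth of the 37 genes. The median absolute log2 fold change was 0.15 over all genes tested and 0.10 over the 5385 whose counts averaged 250 or more. It was 0.058 over the 37 genes.

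Other genes of the pathway were then taken from a list of 104 written from general knowledge. Of these, 100 were matched in the count table and 96 were tested. At an edgeR adjusted p under 0.05, 3 of the 96 were called (3.13%, against 1.82% of all genes), all higher in WT, and 12 (12.5%, against 11.9%) had an unadjusted p under 0.05. DESeq2 called 6, of which 4 were higher and 2 lower in WT, and with a mean of at least 50 counts 5 were called, 4 higher and 1 lower. The median log2 fold change was 0.0021.

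Sla, one of these called genes, encodes the Src-like adaptor, which dampens antigen receptor levels and signals through the ligase Cbl. It was at 350.4, 321 and 356 CPM in WT and 249.9, 269.9 and 254 CPM in KO, which gave a log2 fold change of 0.41 ± 0.07 (SE; adjusted p 0.00104 in edgeR). All WT libraries were above all KO libraries, and the call was kept without each library in turn. Its 3′ end has a gene on the opposite strand, Tg, which held 8 to 24 counts against 2476 to 3830 for Sla.

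Further genes, named here after their values were seen, were just above the threshold. Csk, the kinase that holds Src-family kinases inactive, was at 329.8, 350.4 and 331 CPM in WT and 397, 405 and 399 CPM in KO, which gave a log2 fold change of -0.25 ± 0.07 (SE; adjusted p 0.0526 in edgeR). Orai1, the pore of the store-operated calcium channel that STIM1 opens, was at 125, 126 and 128 CPM in WT and 90.5, 98.0 and 109.8 CPM in KO, which gave a log2 fold change of 0.35 ± 0.09 (SE; adjusted p 0.0526 in edgeR). The genotypes did not overlap in either gene, but neither was called. Such a lack of overlap was seen in 16 of the 96 genes (16.7%), against 16.7% of all genes tested.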

How the data were processed

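Each of the 6 libraries held RNA of follicular B cells after 1 h of culture. The authors prepared 3′ end libraries with a QuantSeq kit, aligned reads to mm10 with STAR and used HTSeq to count reads for each gene. Which versions, which annotation and which strand setting they used is not given in the sources used here. The deposited values are raw read counts for 12431 genes, the lowest total over the 6 libraries being 10. There were 0 unused sample columns. No molecular identifiers were stated, so counts are reads and not molecules.

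Genes were filtered with filterByExpr (10514 kept), scaled with TMM factors and tested with edgeR 4.0.16 in R 4.3.3 (robust quasi-likelihood F test, WT against KO, two-sided, Benjamini-Hochberg adjustment over all genes tested, threshold 0.05). The SE of a log2 fold change is its size divided by the square root of F, and 95% intervals use the t distribution on the total degrees of freedom. CPM are counts over TMM-scaled library size. The script was tested on simulated data.

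The 37 genes, their arms and all lists were chosen with earlier results of these data known. Every one of the 37 is named, and each library's value is given for genes with an adjusted or unadjusted p under 0.05, the receptor chains, Syk, Btk, Blnk, Plcg2 and paralogs of these. Of the other pathway genes with an adjusted p under 0.05, 1 is named and the rest are not reported here, and Gpr174 is given as the targeted gene. No pair of libraries within a genotype agreed within sampling noise (chi-square per degree of freedom 6.89 to 10.9). Alternatives were DESeq2 1.42.0, limma-voom (limma 3.58.1), RLE and upper-quartile factors, no filter on low counts, a mean of at least 50 counts, a replicate block, ordinary dispersions, and leaving out each library in turn. Gene positions are from GENCODE on mm10, and promoter windows are from RefSeq (GRCm38.p6).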

Additional observations from a re-analysis of the deposited data

How the results depend on the processing

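The count of the 37 genes that were called was 4 under DESeq2, limma-voom, RLE factors, upper-quartile factors, no filter on low counts and a mean of at least 50 counts, and 3 with ordinary dispersions, where Inpp5d had an adjusted p of 0.055. Leaving out each library in turn gave 2 to 4 of the 37. Over all genes tested 191 were called, 261 by DESeq2, and 91 (without KO replicate 3) to 183 with one library left out; 113 were called without KO replicate 2. Of the other pathway genes 3 were called, 6 by DESeq2, 5 with a mean of at least 50 counts and 6 with a replicate block (4 higher and 2 lower in WT), and upper-quartile factors gave 3 higher and 1 lower. The median log2 fold change of the 37 genes lay between -0.035 and 0.0057 with one library left out. The cause of these changes was not tested.

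Same-numbered libraries deviated together only weakly, with correlations of 0.050, 0.014 and 0.043 over 10514 genes. These were under the bound of 0.1 used here, so the main test did not treat the numbers as pairs. Such a bound cannot show that the samples were unpaired, and each WT library correlated best with the KO library of its own number. With the replicate number as a block, 6 of the 37 genes were called, Malt1 (adjusted p 0.0347) and Nfatc3 (0.0366) being added, and 281 of all genes tested.

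Estimates near 0 changed sign among genes that were not called. For Pik3ap1 the log2 fold change was -0.0031 by limma-voom, -0.0095 with upper-quartile factors, -0.0012 with no filter and -0.0011 with the replicate block. With one library left out it ranged from -0.099 to 0.060 for Pik3ap1, -0.065 to 0.11 for Cd79a, -0.055 to 0.14 for Cd81, -0.076 to 0.0072 for Syk, -0.0025 to 0.053 for Fyn, -0.028 to 0.076 for Ptprc, -0.078 to 0.18 for Rasgrp3, -0.070 to 0.0057 for Dapp1, -0.10 to 0.028 for Cblb, -0.12 to 0.00055 for Mapk3, -0.038 to 0.085 for Pik3cd, -0.070 to 0.0075 for Akt1, -0.025 to 0.15 for Itpr1, -0.086 to 0.038 for Itpr2, -0.00011 to 0.088 for Nfatc1, -0.016 to 0.15 for Nfatc2 and -0.00012 to 0.089 for Prkcb. The log2 fold changes of Cd79b, Blk, Grap and Inpp5d kept their sign under every alternative named here. Vav2 had 6 to 39 counts per library, the fewest of the 37 genes.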
